A study of Mus musculus with 18 samples.

Results

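The genes described here are 10 CC chemokine genes, Ccl2, Ccl3, Ccl4, Ccl5, Ccl6, Ccl7, Ccl9, Ccl17, Ccl22 and Ccl24, out of 19937 mouse genes with a usable probe set on the array. They were chosen by gene symbol, with earlier results of these data known. Each was represented by a single probe set that carried its symbol and no other. All 10 lay above the low value filter, a log2 value of 3.51, on 18 of 18 arrays, and they are among the 14003 genes tested. RNA came from colon lamina propria cells of BALB/c mice 8 weeks of age, taken from the MHC+CD11chigh gate and sorted as CD103+CD11b- cells, CD103+CD11b+ cells and CD103-CD11b+ cells. CD103 is an integrin chain found on many intestinal dendritic cells, and CD11b is an integrin chain of myeloid cells. Each subset came from mice given no DSS according to the titles, here called untreated, and from mice on 2% DSS, dextran sulfate sodium, which damages the colon epithelium and causes colitis. This gave 6 groups of 3 arrays. Experiments 1 to 3 were untreated and experiments 4 to 6 were DSS, each with 1 array of every subset, so DSS and experiment cannot be told apart. Neither the number of mice behind an array nor whether experiments used separate animals is given in the labels, so the p-values measure the spread between these arrays, which may be technical. Each array holds the RNA of a sorted population, and fewer cells that express a gene cannot be told apart from less RNA per cell.

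CC chemokines are small secreted proteins that guide leukocytes through receptors of the Ccr family. Ccl2 and Ccl7 act on Ccr2 and draw monocytes out of the blood. Ccl3, Ccl4 and Ccl5 attract monocytes and activated T cells, and Ccl3 and Ccl5 act on Ccr1. Ccl6 and Ccl9 are rodent chemokines of myeloid cells that act on Ccr1. Ccl24, also called eotaxin-2, acts on Ccr3 of eosinophils, and Ccl17 and Ccl22 act on Ccr4 of T helper 2 cells, regulatory T cells and skin-homing T cells. Intestinal mononuclear phagocytes, dendritic cells and macrophages alike, are known sources of several of these ligands.

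All values below are log2 levels made by robust multi-array averaging (RMA), where a difference of 1 is a doubling. Levels of a gene can be compared between groups, but not between genes, since each probe set has its own response. A difference was called when its p-value from limma's moderated test, adjusted over the 14003 genes by the Benjamini-Hochberg method, lay under 0.05. Array medians ran from 3.99 to 4.09, arrays of a group correlated at 0.965 to 0.982 across probe sets, and the median standard error of a difference between groups was 0.166. The labels were checked against marker genes. All 7 cDC1 markers tested, among them Xcr1 and Clec9a, were higher in CD103+CD11b- cells than in CD103-CD11b+ cells in both conditions, and all 7 cDC2 markers were lower. Macrophage markers such as C1qa and Csf1r were above the filter level in every group, while Cd163 lay near it, with group means from 3.37 to 3.64. The mean level of the macrophage list was highest in CD103-CD11b+ cells, at 7.49 to 8.18 untreated and 7.44 to 7.77 after DSS, against 5.76 to 6.02 and 6.27 to 6.33 in CD103+CD11b- cells, with CD103+CD11b+ cells between them at 6.60 to 6.76 and 6.59 to 6.64.

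In untreated mice 4 of the 10 chemokine genes were lower in CD103+CD11b- cells than in CD103-CD11b+ cells and none was higher. These were Ccl3, Ccl6, Ccl9 and Ccl24. Of all genes tested, 10.3% were called in this comparison and 5.32% were called lower. The median difference of the 10 genes was -0.39, beside 0.01 over all genes. After DSS 4 were again lower, now Ccl5, Ccl6, Ccl9 and Ccl24, where 8.53% of all genes were called and 4.34% were lower. The median of the 10 was then -0.68, beside -0.01 over all genes. The 10 were chosen with earlier results of these data known, so these shares are not those of an unselected set. Of 8 other CC chemokine genes tested, 1 was called lower in untreated mice and 0 after DSS, with medians of 0.01 and -0.01.

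CD103+CD11b- cells were also lower than CD103+CD11b+ cells for 3 of the 10 in untreated mice, Ccl6, Ccl9 and Ccl22, with 6.86% of all genes called and 4.09% lower. After DSS Ccl22 alone was called in this comparison, with 5.96% of all genes called and 2.39% lower. Between the CD11b+ subsets, Ccl6, Ccl9 and Ccl24 were lower in CD103+CD11b+ cells than in CD103-CD11b+ cells in both conditions. That is 3 of 10 genes, beside 4.11% of all genes called and 1.75% lower in untreated mice, and 1.58% called and 1.14% lower after DSS. No chemokine gene of the 10 was called higher in CD103+CD11b- cells than in another subset.

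**Figure D1:**
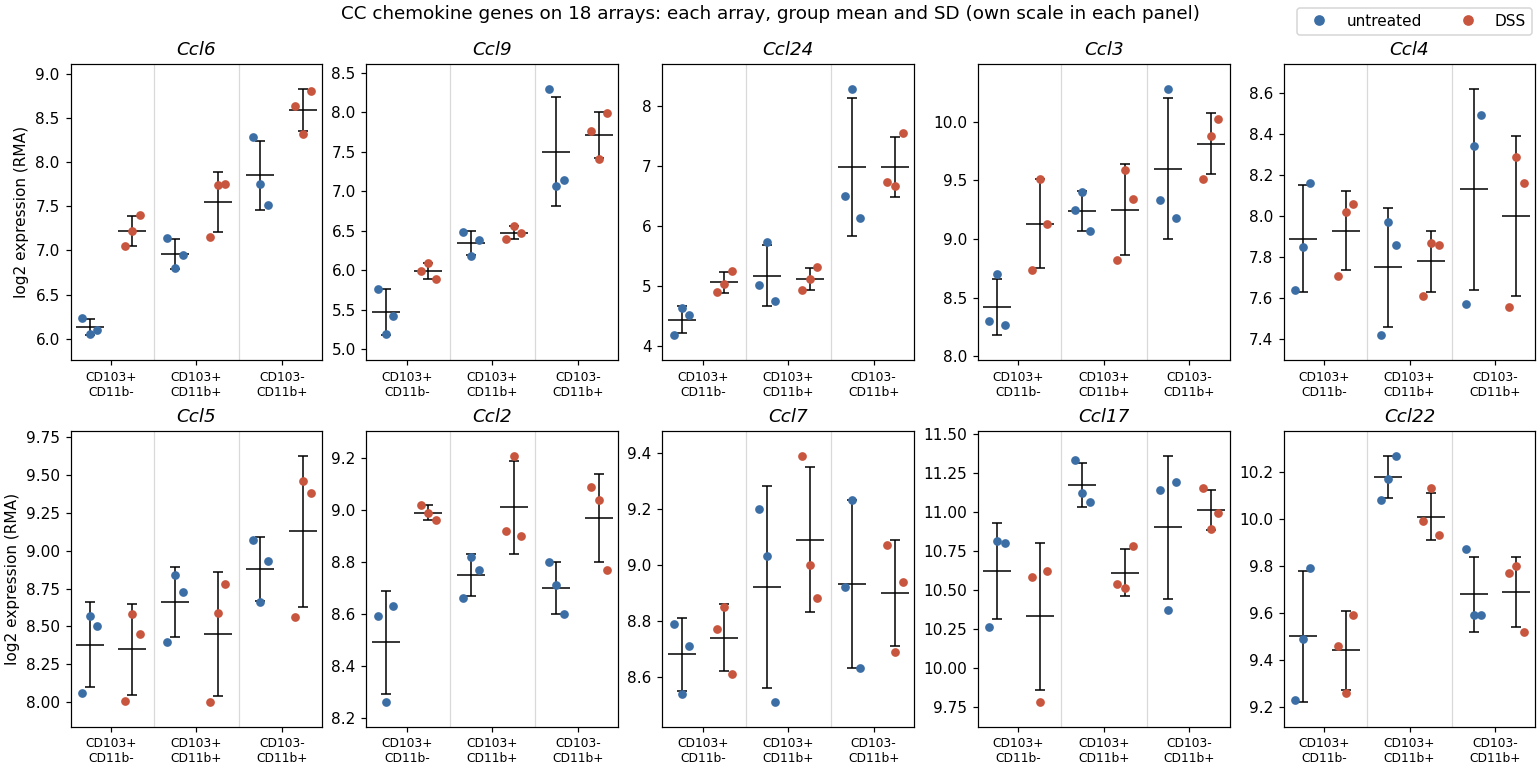
Log2 RMA levels of the 10 CC chemokine genes (vertical axis, own scale in each panel) on 18 arrays, by sorted subset and condition; points are arrays, and the mark with bars is the group mean and SD (n = 3). Ccl6, Ccl9 and Ccl24 are highest in CD103-CD11b+ cells, and Ccl22 is highest in CD103+CD11b+ cells, with group means of 10.18 untreated and 10.01 after DSS.

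Ccl9, a chemokine of myeloid cells also known as MIP-1 gamma, separated the subsets by steps. In untreated mice its level was 5.77, 5.20 and 5.42 in CD103+CD11b- cells, 6.49, 6.18 and 6.39 in CD103+CD11b+ cells, and 8.30, 7.07 and 7.14 in CD103-CD11b+ cells. The 3 subsets did not overlap, and the replicate 1 array of the CD103-CD11b+ cells stood above the other two. After DSS the levels were 5.99, 6.09 and 5.89, then 6.40, 6.56 and 6.48, then 7.76, 7.41 and 7.99 in the same order of subsets, again without overlap. CD103+CD11b- cells were 4.10-fold lower than CD103-CD11b+ cells in untreated mice, a log2 difference of -2.04 ± 0.24 (SE, limma adjusted p = 6.54e-06), and 3.31-fold lower after DSS, at -1.73 ± 0.24 (limma adjusted p = 5.75e-05). CD103+CD11b+ cells were lower than CD103-CD11b+ cells by log2 differences of -1.15 ± 0.24 (limma adjusted p = 0.00971) and -1.24 ± 0.24 (limma adjusted p = 0.0106). Without the replicate 1 array of untreated CD103-CD11b+ cells the first of these was -0.75 and still called. Against CD103+CD11b+ cells, CD103+CD11b- cells were lower at -0.89 ± 0.24 (limma adjusted p = 0.0292) in untreated mice, a call lost without any of 4 single arrays, at adjusted p up to 0.125. After DSS the same difference was -0.49, with a 95% interval from -1.0 to 0.02. Subset accounted for 85.3% of the sum of squares of Ccl9 over the 18 arrays, the largest share among the 10 genes.

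Ccl6, a chemokine of myeloid cells encoded beside Ccl9, had the same order of subsets. Its untreated levels were 6.23, 6.06 and 6.10 in CD103+CD11b- cells, 7.14, 6.80 and 6.95 in CD103+CD11b+ cells, and 8.28, 7.75 and 7.51 in CD103-CD11b+ cells. None of these groups overlapped. After DSS the levels were 7.05, 7.22 and 7.40, then 7.15, 7.74 and 7.75, then 8.64, 8.32 and 8.80. The CD103+ subsets overlapped after DSS, and CD103-CD11b+ cells lay above both. CD103+CD11b- cells were 3.29-fold lower than CD103-CD11b+ cells in untreated mice, at -1.72 ± 0.19 (limma adjusted p = 3.65e-06), and 2.58-fold lower after DSS, at -1.36 ± 0.19 (limma adjusted p = 7.04e-05). CD103+CD11b+ cells were lower than CD103-CD11b+ cells at -0.88 ± 0.19 (limma adjusted p = 0.0128) and -1.04 ± 0.19 (limma adjusted p = 0.00711). In untreated mice CD103+CD11b- cells were also below CD103+CD11b+ cells, at -0.83 ± 0.19 (limma adjusted p = 0.01), and without the replicate 1 array of the CD103+CD11b+ cells the adjusted p was 0.0564. After DSS that difference was -0.32, with an interval from -0.73 to 0.08.

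Ccl6 and Ccl9 lie next to each other on chromosome 11, in a run of Ccl5, Ccl9, Ccl6, Ccl3 and Ccl4 with no other protein-coding gene between them in the RefSeq annotation (assembly GRCm38.p6). Their levels were correlated over the 18 arrays (Pearson r = 0.91) and also after the group means were taken out (r = 0.75). Both values are across arrays that share experiments and given with no test. The other adjacent pairs of the run were less close within groups. They were at 0.01 for Ccl5 and Ccl9, 0.21 for Ccl6 and Ccl3, and 0.39 for Ccl3 and Ccl4. Ccl3 and Ccl24, on chromosomes 11 and 5, were at 0.77, so lying side by side did not go with closeness in general. RefSeq promoters were matched for 5 of the 10 genes. The 200 bases before the start of transcription of Ccl6 and Ccl9 are shown because their levels moved together. The windows lie on the minus strand of chr11:83593088-83593287 for Ccl6 and of chr11:83578637-83578836 for Ccl9 (GRCm38.p6). Capitals mark GGAAGTG, a sequence of the kind that ETS factors such as PU.1 bind, found on the strand opposite to the gene.
Ccl6: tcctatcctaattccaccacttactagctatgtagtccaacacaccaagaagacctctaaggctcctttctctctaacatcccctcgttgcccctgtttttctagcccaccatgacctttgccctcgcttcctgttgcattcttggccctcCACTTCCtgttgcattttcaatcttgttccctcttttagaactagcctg
Ccl9: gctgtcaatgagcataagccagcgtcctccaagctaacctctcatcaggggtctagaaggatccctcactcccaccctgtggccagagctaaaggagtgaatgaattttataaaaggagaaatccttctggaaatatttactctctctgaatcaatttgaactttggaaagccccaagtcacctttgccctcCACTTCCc
Both hold the run gccctccacttcc, 13 bases long, which begins 55 bases before the start in Ccl6 and 14 bases before it in Ccl9. The GGAAGTG match lies within that run. It was searched on both strands with the sequences in view, and it occurs in 7.28% of 32851 promoters of this length. A match to the NF-kappaB motif overlapped no other match and was found in Ccl9, 35 bases before the start on the opposite strand, as in 6.07% of promoters. These matches describe the letters of the windows and are not measured binding.

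Ccl24, the eosinophil attractant eotaxin-2, had the widest range of the 10 genes, from 4.18 to 8.29. In untreated mice its levels were 4.18, 4.63 and 4.51 in CD103+CD11b- cells, 5.01, 5.74 and 4.75 in CD103+CD11b+ cells, and 6.50, 8.29 and 6.14 in CD103-CD11b+ cells. After DSS they were 4.90, 5.03 and 5.25, then 4.94, 5.11 and 5.32, then 6.73, 6.67 and 7.56. CD103-CD11b+ cells lay above both CD103+ subsets in each condition, and the CD103+ subsets overlapped after DSS. The log2 difference of CD103+CD11b- from CD103-CD11b+ cells was -2.54 ± 0.39 (limma adjusted p = 0.00014), 5.80-fold, in untreated mice and -1.93 ± 0.39 (limma adjusted p = 0.00237), 3.81-fold, after DSS. CD103+CD11b+ cells were lower than CD103-CD11b+ cells at -1.81 ± 0.39 (limma adjusted p = 0.0109) and -1.86 ± 0.39 (limma adjusted p = 0.0161). The replicate 2 array of untreated CD103-CD11b+ cells carried the value of 8.29, and without it the untreated differences were -1.88 and -1.15, both still called.

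Between CD103+CD11b+ and CD103-CD11b+ cells the untreated calls of Ccl6, Ccl9 and Ccl24 were all lost when the spread was estimated from those 6 arrays alone, at adjusted p of 0.0861, 0.11 and 0.122. The Ccl6 call was also lost without the replicate 1 array of the CD103-CD11b+ cells, at an adjusted p of 0.0607, or without the replicate 2 array of the CD103+CD11b+ cells. After DSS the 3 calls between these subsets were lost without the replicate 4 array of the CD103+CD11b+ cells or the replicate 6 array of the CD103-CD11b+ cells, and that of Ccl24 also without the replicate 5 array of the CD103+CD11b+ cells, with an adjusted p up to 0.108. The calls of Ccl6, Ccl9 and Ccl24 between CD103+CD11b- and CD103-CD11b+ cells held in both conditions under all alternatives run.

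The macrophage and monocyte marker lists moved with these genes. Of 9 macrophage markers tested, 7 were lower in CD103+CD11b- cells than in CD103-CD11b+ cells in each condition, and of 5 monocyte markers 3 were lower in untreated mice and 5 after DSS. The mean level of the monocyte list was 7.07 to 7.29, 7.43 to 7.55 and 7.82 to 8.25 in untreated CD103+CD11b-, CD103+CD11b+ and then CD103-CD11b+ cells, and 7.37 to 7.46, 7.64 to 7.76 and 8.21 to 8.39 after DSS. Among the defining markers Cd163 lay under the filter level on all arrays of untreated CD103+CD11b+ cells, and Chil3 on those of every group but the DSS CD103-CD11b+ cells. Within groups over 18 arrays, Ccl24 followed the mean of the macrophage list at r = 0.73, whereas Ccl6 was at -0.07 and Ccl9 at -0.32. For the monocyte list the within-group values were 0.60 for Ccl6, 0.77 for Ccl9 and -0.03 for Ccl24. The part of macrophages or monocytes in these differences was not tested.

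**Figure D2:**
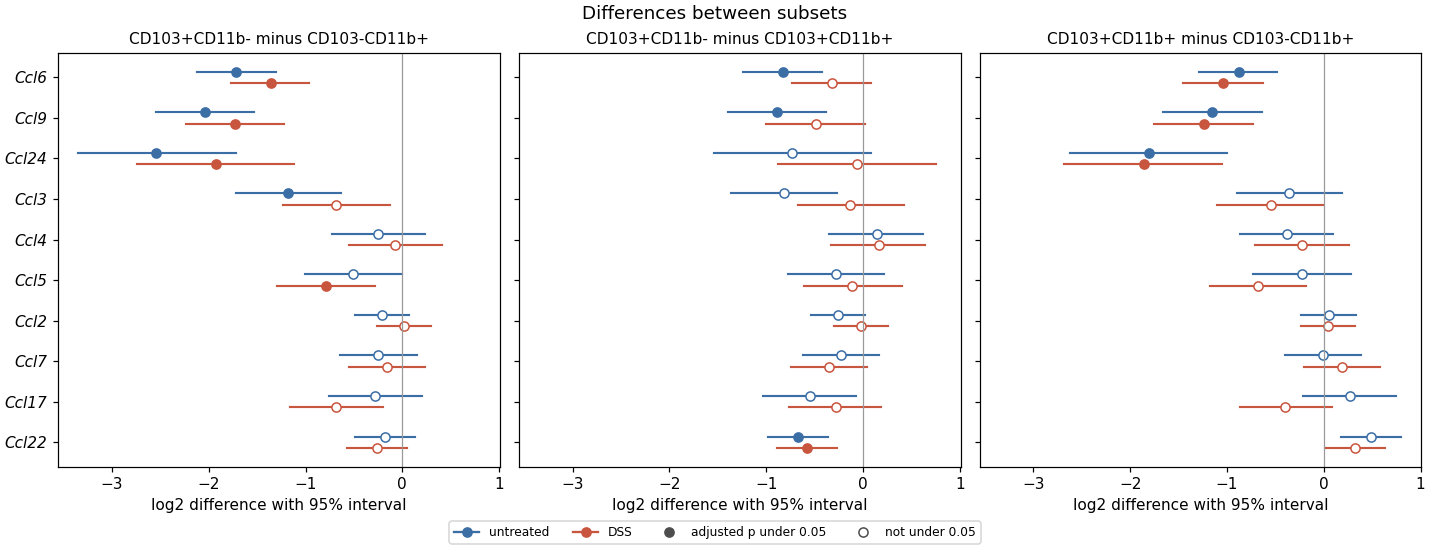
Log2 differences between sorted subsets (horizontal axis) for the 10 CC chemokine genes, with 95% intervals, in untreated and DSS mice; filled points have a limma adjusted p under 0.05 and open points do not. Ccl6, Ccl9 and Ccl24 are called in both conditions in the comparisons of CD103+CD11b- and of CD103+CD11b+ with CD103-CD11b+ cells, and Ccl22 in the comparison of the CD103+ subsets.

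Ccl3, the inflammatory chemokine MIP-1 alpha, was lowest in untreated CD103+CD11b- cells. Its untreated levels were 8.30, 8.70 and 8.27 there, 9.25, 9.40 and 9.07 in CD103+CD11b+ cells, and 9.33, 10.28 and 9.18 in CD103-CD11b+ cells. CD103+CD11b- cells lay below both other subsets, which overlapped. They were 2.26-fold lower than CD103-CD11b+ cells, at -1.18 ± 0.26 (limma adjusted p = 0.00497), and this call held under all alternatives run. Against CD103+CD11b+ cells the difference was -0.82, with an interval from -1.36 to -0.27 (limma adjusted p = 0.0685). With experiment as a replicate block that difference was called, at an adjusted p of 0.00334.

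After DSS, Ccl3 was at 8.74, 9.51 and 9.13 in CD103+CD11b- cells, 8.82, 9.59 and 9.34 in CD103+CD11b+ cells, and 9.51, 9.88 and 10.02 in CD103-CD11b+ cells. The CD103+ subsets overlapped, and CD103+CD11b- cells did not overlap CD103-CD11b+ cells. That difference was -0.68, with an interval from -1.23 to -0.13 (limma adjusted p = 0.137), and was called with experiment as a block, at an adjusted p of 0.0108. Within each of the 6 experiments Ccl3 was lower in CD103+CD11b- cells than in CD103-CD11b+ cells, by log2 differences from -1.58 to -0.37.

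Ccl4, MIP-1 beta, is the neighbour of Ccl3 on chromosome 11, and its subsets overlapped throughout. Its levels were 7.64, 7.85 and 8.16 in untreated CD103+CD11b- cells, 7.42, 7.97 and 7.86 in CD103+CD11b+ cells, and 7.57, 8.34 and 8.49 in CD103-CD11b+ cells. After DSS they were 7.71, 8.02 and 8.06, then 7.61, 7.87 and 7.86, then 7.56, 8.29 and 8.16. No comparison called it. The untreated difference of CD103+CD11b- from CD103-CD11b+ cells was -0.25, with an interval from -0.73 to 0.24. That of Ccl3 was -1.18, with an interval from -1.72 to -0.63. The intervals overlap, and these genes were not compared with each other by a test.

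Ccl5, also called RANTES, was called in a single comparison. After DSS it was at 8.01, 8.58 and 8.45 in CD103+CD11b- cells, 8.00, 8.59 and 8.78 in CD103+CD11b+ cells, and 8.56, 9.46 and 9.38 in CD103-CD11b+ cells. CD103+CD11b- cells were 1.72-fold lower than CD103-CD11b+ cells, at -0.79 ± 0.24 (limma adjusted p = 0.0487), although the replicate 4 array of the CD103-CD11b+ cells overlapped the other group. That call was lost under 15 alternatives, with an adjusted p up to 0.231, among them the leaving out of each CD103+CD11b- array and of the replicate 5 or 6 array of the CD103-CD11b+ cells. With experiment as a block the difference of CD103+CD11b+ from CD103-CD11b+ cells, -0.68, was called as well, at an adjusted p of 0.0384 in place of 0.252.

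In untreated mice Ccl5 was at 8.06, 8.57 and 8.50, then 8.40, 8.84 and 8.73, then 9.07, 8.66 and 8.93 in the same order of subsets. CD103+CD11b- cells lay just below CD103-CD11b+ cells without overlap, at -0.51 with an interval from -1.01 to 0.00. Ccl5 is also a known product of cytotoxic T cells and NK cells. Of 9 markers of T, NK and innate lymphoid cells tested, Cd4 and Il7r were lower in CD103+CD11b- cells than in CD103-CD11b+ cells in both conditions, and the list mean was 5.26 to 5.37 against 5.57 to 5.75 after DSS. Of its defining markers Ncr1 and Klrb1c lay under the filter level in these DSS groups. Within groups the correlation of Ccl5 with the mean of that list was -0.08 over 18 arrays. The part of these cells in the level of Ccl5 was not tested.

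Ccl22, the macrophage-derived chemokine that binds Ccr4, was highest in CD103+CD11b+ cells. Its untreated levels were 9.23, 9.49 and 9.79 in CD103+CD11b- cells, 10.08, 10.17 and 10.27 in CD103+CD11b+ cells, and 9.87, 9.59 and 9.59 in CD103-CD11b+ cells. After DSS they were 9.46, 9.26 and 9.59, then 9.99, 10.13 and 9.93, then 9.77, 9.80 and 9.52. In both conditions CD103+CD11b+ cells lay above the other subsets, which overlapped each other. CD103+CD11b- cells were 1.60-fold lower than CD103+CD11b+ cells in untreated mice, at -0.67 ± 0.15 (limma adjusted p = 0.00628), and 1.49-fold lower after DSS, at -0.58 ± 0.15 (limma adjusted p = 0.0217). The untreated call was lost without the replicate 1 array of the CD103+CD11b- cells, at an adjusted p of 0.0506, and the DSS call without the replicate 4 or 5 array of either subset, at up to 0.115.

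Against CD103-CD11b+ cells, CD103+CD11b+ cells had a Ccl22 difference of 0.49 in untreated mice, with an interval from 0.18 to 0.80 (limma adjusted p = 0.0719), and of 0.32 after DSS, with an interval from 0.01 to 0.63 (limma adjusted p = 0.497). Ccl22 was higher in CD103+CD11b+ cells than in CD103-CD11b+ cells in 6 of 6 experiments, by 0.22 to 0.68. Its correlation with the mean of the macrophage list was 0.12 over the 18 arrays, and that of Ccl24 was 0.93.

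Ccl17, also called TARC, is the second Ccr4 ligand, and no comparison called it. Untreated levels were 10.26, 10.81 and 10.80 in CD103+CD11b- cells, 11.33, 11.12 and 11.06 in CD103+CD11b+ cells, and 11.14, 10.37 and 11.19 in CD103-CD11b+ cells. After DSS they were 10.58, 9.78 and 10.62, then 10.54, 10.51 and 10.78, then 11.15, 10.89 and 10.99. In untreated mice the CD103+CD11b- cells lay below the CD103+CD11b+ cells, and after DSS both CD103+ subsets lay below the CD103-CD11b+ cells. The DSS difference of CD103+CD11b- from CD103-CD11b+ cells was -0.68, with an interval from -1.16 to -0.20 (limma adjusted p = 0.0766). It was called when the prior spread was allowed to follow the mean level, at an adjusted p of 0.0498, and without the replicate 2 array of untreated CD103-CD11b+ cells, at 0.0335.

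Ccl17 and Ccl22 lie close together on chromosome 8 with 1 protein-coding gene between them, and their levels correlated at r = 0.57 over 18 arrays and 0.49 within groups. Their promoters are shown because these neighbours share a receptor, on the plus strand of chr8:94810253-94810452 for Ccl17 and of chr8:94745484-94745683 for Ccl22 (RefSeq, GRCm38.p6), with capitals for TTAAATA and, in Ccl22, for GGAAGTG.
Ccl17: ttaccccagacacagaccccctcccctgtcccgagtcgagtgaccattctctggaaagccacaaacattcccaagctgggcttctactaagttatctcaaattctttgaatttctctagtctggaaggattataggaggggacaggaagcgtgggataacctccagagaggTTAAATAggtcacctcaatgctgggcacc
Ccl22: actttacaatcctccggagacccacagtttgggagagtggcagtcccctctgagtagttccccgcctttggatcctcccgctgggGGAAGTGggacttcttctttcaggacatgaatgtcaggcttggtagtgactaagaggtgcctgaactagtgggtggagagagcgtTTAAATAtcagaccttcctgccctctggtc
TTAAATA, an A and T rich run of the kind found at TATA boxes, begins 29 bases before the start in Ccl17 and 30 bases before it in Ccl22, and it is the longest run the windows share. It occurs in 3.22% of promoters of this length on either strand. Ccl22 holds GGAAGTG 115 bases before its start. Ccl17 holds TTCNNNGAA, the pattern of STAT factors, 99 bases before its start, and the form with 1 more base in its spacer, which Stat6 prefers, 154 bases before it, and 5.49% and 4.53% of promoters hold these patterns. These motifs too were picked with the sequences in view, were searched on both strands, and overlapped no other match.

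Ccl2, the main monocyte attractant MCP-1, was called in no comparison. Its untreated levels were 8.59, 8.26 and 8.63 in CD103+CD11b- cells, 8.66, 8.82 and 8.77 in CD103+CD11b+ cells, and 8.80, 8.71 and 8.60 in CD103-CD11b+ cells. After DSS they were 9.02, 8.99 and 8.96, then 8.92, 9.21 and 8.90, then 9.09, 9.04 and 8.77. The DSS arrays lay above the untreated arrays in both CD103+ subsets and overlapped them in CD103-CD11b+ cells. After DSS the difference of CD103+CD11b- from CD103-CD11b+ cells was 0.02, with an interval from -0.26 to 0.30.

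Ccl7, the monocyte attractant MCP-3, adjoins Ccl2 on chromosome 11. It was at 8.79, 8.54 and 8.71, then 9.20, 9.03 and 8.51, then 8.92, 9.23 and 8.63 in untreated CD103+CD11b-, CD103+CD11b+ and then CD103-CD11b+ cells. After DSS it was at 8.77, 8.85 and 8.61, then 9.39, 9.0 and 8.88, then 9.07, 8.69 and 8.94. Only the CD103+ subsets after DSS were free of overlap, at -0.35 with an interval from -0.74 to 0.04. No comparison called Ccl7, and its difference between conditions over all subsets, 0.07, had an interval from -0.19 to 0.33.

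Between conditions 1 of the 10 genes was called. Ccl6 was higher after DSS in CD103+CD11b- cells, 2.13-fold, at 1.09 ± 0.19 (limma adjusted p = 0.0256), where 0.129% of all genes were called and 0.107% were called higher. In CD103+CD11b+ cells its difference was 0.58, with an interval from 0.18 to 0.99 (limma adjusted p = 0.314), and in CD103-CD11b+ cells 0.74, with an interval from 0.33 to 1.15 (limma adjusted p = 0.205). In each of the 3 subsets every DSS array lay above every untreated array. The share of all genes whose groups did not overlap in either direction was 12.3%, 15.5% and 11.5% in the 3 subsets. Over all subsets, on the mean of each experiment, Ccl6 was 1.75-fold higher, at 0.81 ± 0.13 (limma adjusted p = 0.0491), with 0.186% of all genes called and 0.15% higher. That comparison was added after the values were seen.

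The Ccl6 call in CD103+CD11b- cells was lost without any of the 6 arrays compared, at adjusted p from 0.0607 to 0.186. The call over all subsets was lost without experiment 2, 3, 5 or 6, and under 3 other settings, at adjusted p up to 0.156. In CD103-CD11b+ cells the difference was called without the replicate 1 array of the untreated cells, at an adjusted p of 0.0482. The mean levels of several marker lists moved the same way. That of 10 neutrophil markers was 3.97 to 4.34 in untreated and 4.34 to 5.19 in DSS CD103+CD11b- cells, 4.15 to 4.34 and 4.50 to 5.39 in CD103+CD11b+ cells, and 4.39 to 4.62 and 4.68 to 5.43 in CD103-CD11b+ cells. Of 9 such markers tested Retnlg alone was called, in both CD103+ subsets, while Mmp8 and Cxcr2 lay under the filter level in DSS CD103+CD11b- cells. Within groups Ccl6 followed this list at r = 0.61 and Ccl5 at 0.64 over 18 arrays, and the part of neutrophils in the level of Ccl6 was not tested.

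In CD103+CD11b- cells other lists moved with Ccl6 as well. Without overlap between conditions, the mean of the monocyte list went from 7.07 to 7.29 in untreated cells to 7.37 to 7.46 after DSS. For the macrophage list these ranges were 5.76 to 6.02 and 6.27 to 6.33. For the cDC2 list they were 5.25 to 5.58 and 5.82 to 5.83. For the eosinophil and mast cell list they were 3.70 to 3.84 and 4.03 to 4.18. A list of markers common to dendritic cells also rose without overlap, at 9.10 to 9.12 and 9.22 to 9.33. So did that of T, NK and innate lymphoid cells, at 5.02 to 5.17 and 5.26 to 5.37. The B and plasma cell list fell without overlap, at 7.27 to 7.38 and 7.01 to 7.14. Of 5 monocyte markers tested Fcgr3 was called higher, at 0.83 ± 0.15 (limma adjusted p = 0.028), and of 7 cDC2 markers Sirpa, at 0.83 ± 0.14 (limma adjusted p = 0.0215). Of 9 macrophage markers none was called by limma, and 6 were higher without overlap, as were 7.48% of all genes. The part of these cells in the level of Ccl6 was not tested.

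No gene of the 10 was called between conditions in CD103+CD11b+ or CD103-CD11b+ cells by limma, where 0.0857% and 0.1% of all genes were called. At an unadjusted p under 0.05 there were 2 in CD103+CD11b+ cells, Ccl6 and Ccl17, beside 10.1% of all genes, and 1 in CD103-CD11b+ cells, Ccl6, beside 7.67%. In CD103+CD11b+ cells Ccl17 was lower after DSS without overlap, with a difference of -0.56 and an interval from -1.04 to -0.08 (limma adjusted p = 0.412). In CD103+CD11b- cells 5 of the 10, Ccl2, Ccl3, Ccl6, Ccl9 and Ccl24, were higher after DSS without overlap, as were 7.48% of all genes. In that subset the macrophage, monocyte, cDC2 and further marker lists moved up too, and the B and plasma cell list moved down. The part of such cells was not tested. Of these 5 genes Ccl3 had a difference of 0.71, with an interval from 0.16 to 1.25 (limma adjusted p = 0.724), and Ccl2 of 0.49, with an interval from 0.21 to 0.77 (limma adjusted p = 0.321). Over all subsets Ccl2 differed by 0.34 ± 0.09 (limma adjusted p = 0.223), and condition accounted for 59.7% of its sum of squares, against 26.2% for Ccl6. Ccl2 followed the mean of 10 stromal and endothelial markers within groups at r = 0.80 over 18 arrays. None of these markers was called between conditions in any subset, their mean lay between 5.46 and 6.21 in every group, and the part of stromal cells in the level of Ccl2 was not tested.

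**Figure D3:**
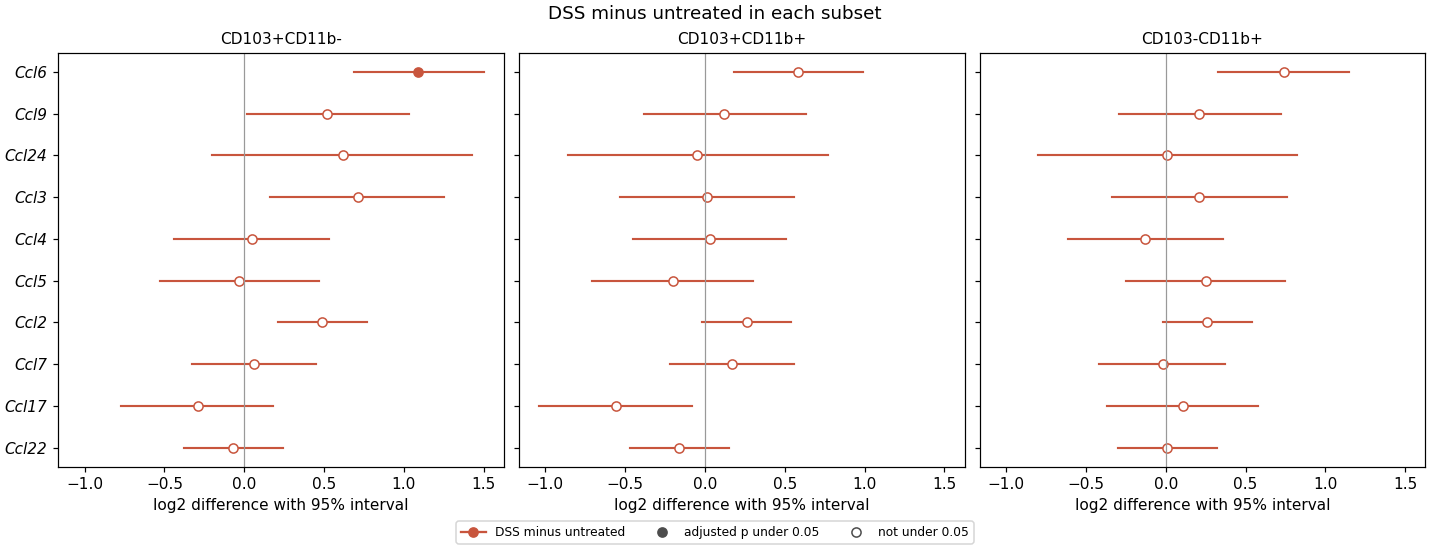
Log2 differences of DSS from untreated cells (horizontal axis) for the 10 CC chemokine genes in each sorted subset, with 95% intervals; the filled point has a limma adjusted p under 0.05 and open points do not. The filled point is Ccl6 in CD103+CD11b- cells, at 1.09.

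Whether DSS acted differently on the subsets was tested as an interaction. None of the 10 genes was called in any of the 3 interactions by limma, none of the 14003 genes was (0%), and none of the 10 had an unadjusted p under 0.05. The unadjusted shares over all genes were 3.64%, 4.83% and 5.56%. For Ccl6 the change with DSS in CD103+CD11b- cells exceeded that in CD103+CD11b+ cells by 0.51, with an interval from -0.07 to 1.09. For Ccl17 the change in CD103+CD11b+ cells minus that in CD103-CD11b+ cells was -0.67, with an interval from -1.34 to 0.01. These intervals are wide, and the call of Ccl6 in a single subset is therefore not shown to differ between subsets.

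Some of the genes varied with the experiment from which the 3 subsets were sorted. Of the sum of squares within groups, the experiment held 83.7% for Ccl4, 80.3% for Ccl3 and 74.9% for Ccl5, beside a median of 36.5% over all genes, which places them at the 98.8th, 98.0th and 96.0th percentile. Ccl4 was low in experiments 1 and 4 in all subsets, with means over subsets of 7.54 and 7.62 against 8.06 and 8.17 in experiments 2 and 3 and 8.06 and 8.03 in experiments 5 and 6. Ccl3 was high in experiment 2, at a mean of 9.46 against 8.96 and 8.84 in experiments 1 and 3, and low in experiment 4, at 9.03 against 9.66 and 9.50. Ccl5 was low in experiment 4, at 8.19 against 8.87 in each of the other DSS experiments. For Ccl22 the experiment held 13.8% of the sum of squares within groups, which is the 10.4th percentile of all genes. Within groups, Ccl3 and Ccl24 moved together over the 18 arrays (r = 0.77), Ccl4 and Ccl5 less closely (r = 0.56).

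**Figure D4:**
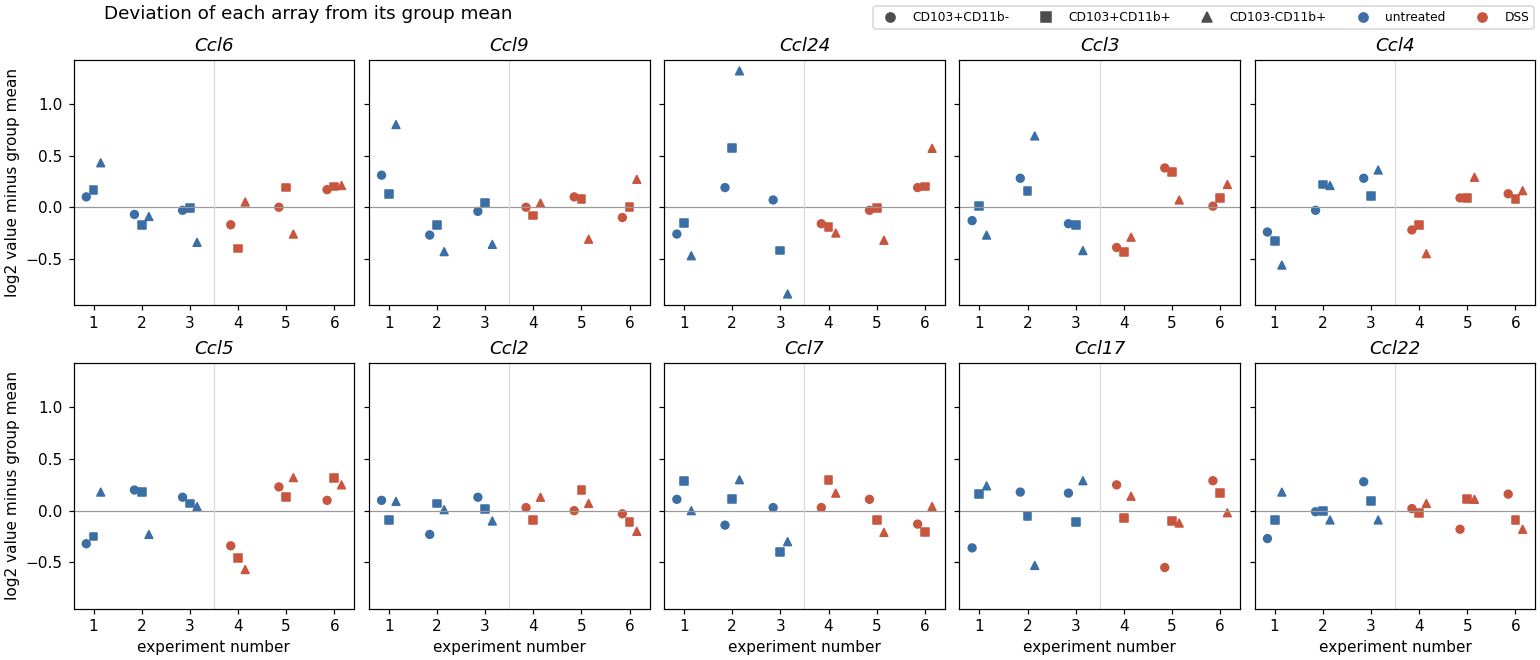
Deviation of each array from the mean of its group (vertical axis, log2) for the 10 CC chemokine genes, by experiment number (horizontal axis), with a marker shape for each subset and a colour for each condition. Ccl4 is low in experiments 1 and 4, where its mean deviations over subsets are -0.38 and -0.28, and Ccl24 is high in experiment 2, at 0.69.

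The receptors of these ligands also differed between subsets. Among CC chemokine receptors, 10 genes were tested. In untreated mice Ccr1, Ccr9 and Ccrl2 were lower in CD103+CD11b- cells than in CD103-CD11b+ cells and none was higher, and after DSS Ccr2 joined them. Ccr1, the receptor of Ccl3, Ccl5, Ccl6 and Ccl9, had means of 5.35, 7.88 and 8.12 in untreated CD103+CD11b-, CD103+CD11b+ and then CD103-CD11b+ cells and of 6.15, 7.93 and 8.21 after DSS. The Ccr1 difference of CD103+CD11b- from CD103-CD11b+ cells was -2.77 ± 0.27 (limma adjusted p = 5.49e-07) in untreated mice and -2.06 ± 0.27 (limma adjusted p = 2.48e-05) after DSS. Ccr1 was not called between CD103+CD11b+ and CD103-CD11b+ cells.

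Ccr2, the receptor of Ccl2 and Ccl7, had untreated means of 6.45, 5.65 and 6.54 and DSS means of 6.40, 6.31 and 7.09 in the same order of subsets. It was lower in untreated CD103+CD11b+ cells than in CD103-CD11b+ cells, at -0.89 ± 0.20 (limma adjusted p = 0.0132). Ccr6, the receptor of Ccl20, was higher in CD103+CD11b+ cells than in CD103-CD11b+ cells by 1.05 in both conditions. Ccr4, the receptor of Ccl17 and Ccl22, had group means between 3.84 and 4.47, close to the filter level, and was called nowhere. Ccr3, the receptor of Ccl24, rose with DSS in CD103+CD11b+ cells, by 1.31 ± 0.23 (limma adjusted p = 0.0262), and over all subsets by 1.03 ± 0.09 (limma adjusted p = 0.00185). The mean of the 9 eosinophil and mast cell markers, of which Ccr3 is one, was 3.70 to 3.84, 3.73 to 3.94 and 3.76 to 4.07 in untreated and 4.03 to 4.18, 4.04 to 4.23 and 4.10 to 4.32 in DSS cells of the 3 subsets. Of 6 such markers tested, Ccr3 and the mast cell protease gene Mcpt1, at 0.79 ± 0.12 (limma adjusted p = 0.0419), were called higher over all subsets. On experiment means 3 of the 6 were higher after DSS without overlap and 1 was lower without overlap. The eosinophil granule genes Epx and Prg2 lay under the filter level in all groups, and the part of these cells in the level of Ccr3 was not tested.

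Of 11 other CC chemokine genes listed, 8 were tested, and Ccl12, a further Ccr2 ligand, was the 1 gene called among them. It was lower in untreated CD103+CD11b- cells than in CD103-CD11b+ cells, at -1.11 ± 0.30 (limma adjusted p = 0.0199). Ccl8, another monocyte attractant, had untreated means of 6.25, 6.38 and 7.10 and DSS means of 7.70, 8.22 and 8.23 in CD103+CD11b-, CD103+CD11b+ and then CD103-CD11b+ cells. Over all subsets Ccl8 differed by 1.47 between conditions, with an interval from 0.88 to 2.06 (limma adjusted p = 0.0842). The 3 atypical receptors tested were not called in any comparison.

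Other lists held genes of the NF-kappaB, type 2 and interferon pathways, and their counts ran in different directions. In the comparison of untreated CD103+CD11b- with CD103-CD11b+ cells, 10.3% of all genes were called, with 5.32% called lower. Of 14 genes of NF-kappaB feedback and the inflammatory response, Relb was higher and Cxcl1, Cxcl2 and Ptgs2 were lower in untreated CD103+CD11b- cells than in CD103-CD11b+ cells. Of 14 genes of the type 2 and GM-CSF response, 1 was higher and 6 were lower in that comparison, among them Mgl2, a lectin, at -4.62 ± 0.21, and Mrc1, the mannose receptor, at -2.59 ± 0.20 (limma adjusted p = 3.75e-11 and 3.92e-08). Of 10 interferon response genes 4 were higher, Cxcl9, Cxcl11, Irf8 and Mx1, and none was lower. Of the genes called, Mgl2 and Irf4 are also on the cDC2 marker list and Irf8 is on the cDC1 list, so these counts overlap those of the subset markers. The medians of the 3 lists were 0.06, -0.38 and 0.44, beside 0.01 over all genes. In the comparisons of DSS with untreated cells, the list of NF-kappaB genes had 1 call, Ptgs2, which rose in CD103+CD11b- cells by 0.75 ± 0.14 (limma adjusted p = 0.0413). The type 2 and interferon lists had none. At an unadjusted p under 0.05 they held 3 of 14 and 1 of 10 genes in CD103+CD11b+ cells, beside 10.1% of all genes. In CD103-CD11b+ cells these were 2 of 14 and 2 of 10, beside 7.67%. Within groups over 18 arrays, Ccl3, Ccl4 and Ccl5 correlated with the mean of the interferon list at r = 0.79, 0.75 and 0.76. The other members lay between -0.43 and 0.48, and the part of interferon was not tested.

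The genes whose levels followed each chemokine most closely differed from member to member, by Pearson correlation over the 18 arrays, which share subsets and experiments. Ccl6 was closest to Clec4e, the lectin Mincle (r = 0.96), then Inhba, a chain of activin A (0.95), and Lpl, lipoprotein lipase (0.93). Ccl9 was closest to Capg (0.95), Tmem176b (0.94) and Tmem176a (0.93). Ccl24 was closest to Lhfpl2 (0.96), Ralgds (0.95) and Cxcl2, a neutrophil attractant (0.95). Cxcl2 was also near Ccl3 (0.89), beside Cxcl1 (0.89) and Rab20 (0.88). Ccl22 was closest to Pik3r6 (0.91), Gng4 (0.89) and 4930520O04Rik (0.87), and Ccl17 to Leng9 (0.85), Gadd45b (0.83) and Cyb5r3 (0.82).

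Ccl2 was closest to Mgp (0.90), Igfbp5 (0.89) and Gja1 (0.87), genes best known from stromal cells. For Ccl4, Ccl5 and Ccl7 the nearest genes were less close. They were Gm10390 (0.81), Svopl (0.76) and Tlr12 (0.74) for Ccl4, Ap1s1 (0.85), Neurl2 (0.78) and Cfb (0.78) for Ccl5, and Dtx3 (0.83), Rsrp1 (0.78) and Specc1l (0.78) for Ccl7. Of these 30 nearest places Cxcl2 held 2, and no other gene appeared more than once.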

How the data were processed

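The deposited values are log2 expression levels of 34760 probe sets on 18 Affymetrix arrays, made by the authors with RMA (background correction, quantile normalization and probe summary) per the submitters' processing notes, with no version given. Per the labels' protocols, a small amount of total RNA was amplified and labelled with biotin before hybridization. The values were used as deposited and carry no detection calls, and the number of arrays limits the precision.

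Probe sets with 1 symbol in the platform annotation were used (21640, against 1321 with several and 11799 with none), of which 21553 matched RefSeq by gene identifier. A probe set was kept above the 40th percentile, 3.51, in at least 3 arrays, and the highest mean over 18 arrays stood for a gene, which left 14003. A linear model with 6 group means was fitted in R 4.3.3 with limma 3.58.1, after reading with data.table version 1.17.8, using moderated variances and Benjamini-Hochberg adjustment, and checked on simulated data. All tests were two-sided, errors are standard errors, and intervals are at 95%. The 13 comparisons were 3 pairs of subsets in each condition, DSS against untreated in each subset, 3 interactions, and DSS against untreated over experiment means.

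Experiment numbers in the titles were taken to pair subsets. Across genes, residuals of arrays with the same number correlated at -0.03 to 0.32 in untreated mice (8 of 9 pairs over 0.1) and 0.11 to 0.31 after DSS (9 of 9), against medians of -0.12 and -0.13 for other pairs. Taking out group means makes other pairs negative on average when same-number pairs are positive, so those medians are no separate evidence of pairing. The experiment number was also fitted as a replicate block. Other alternatives were no filter, a stricter filter, a second quantile normalization, median centring, an intensity trend, the mean of probe sets, the compared groups alone, and each array left out. Members, gene lists and motifs were chosen with earlier results of these data known. Named genes are all 10 members, the 3 genes nearest to each by correlation, and genes of the lists. The plan for a list was up to 4 genes by lowest p. Further receptors, uncalled genes such as Ccr4 and Ccl8, and markers near or under the filter level were named beyond that plan. Figures were drawn with matplotlib 3.10.9 and pandas 2.3.3.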

Additional observations from a re-analysis of the deposited data

How the results depend on the processing

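Across the settings that kept all arrays, the number of the 10 genes called stayed within 1.5 times the main number in the subset comparisons, with these exceptions. With the compared groups alone, untreated CD103+CD11b+ cells against CD103-CD11b+ cells went from 3 to 0 and DSS CD103+CD11b- cells against CD103+CD11b+ cells from 1 to 2, because Ccl9 was called there at an adjusted p of 0.0405. Over all subsets, the single DSS call, Ccl6, went to 0 with no filter, with the stricter filter and with a second quantile normalization. No difference that was called changed sign under any setting. With each array left out in turn, the number called was 4 to 4 and 1 to 4 and 2 to 3 in untreated mice for CD103+CD11b- cells against CD103-CD11b+, CD103+CD11b- cells against CD103+CD11b+, and CD103+CD11b+ cells against CD103-CD11b+ cells, and 3 to 5, 0 to 1 and 0 to 3 after DSS. It was 0 to 1 for DSS in CD103+CD11b- cells, 0 to 0 in CD103+CD11b+ cells, 0 to 1 in CD103-CD11b+ cells, and 0 to 1 over all subsets when an experiment was left out. Leaving out an array also lowers the number of arrays, and the cause of these changes was not tested. With experiment as a replicate block, the calls gained were Ccl3 in untreated CD103+CD11b- cells against CD103+CD11b+ cells (adjusted p = 0.00334), Ccl3 in DSS CD103+CD11b- cells against CD103-CD11b+ cells (0.0108) and Ccl5 in DSS CD103+CD11b+ cells against CD103-CD11b+ cells (0.0384), and the block changed no other call of the 10 genes. With an intensity trend in the variance, Ccl22 was called in untreated CD103+CD11b+ cells against CD103-CD11b+ cells, at an adjusted p of 0.0364.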
